A study of Nothobranchius furzeri with 185 samples.

Results

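Brains of 5 killifish (Nothobranchius furzeri) killed at 27 weeks after 4 weeks in rotenone were compared with brains of 5 fish killed at 9 weeks after 4 weeks in the solvent, DMSO. These 10 RNA-seq libraries were chosen by the tissue, age and treatment in their titles, and they are 10 of 185 in the series. Exposure to rotenone began at 23 weeks in the old fish, at a final concentration of 15 pM. Exposure of the young fish, to DMSO without rotenone, began at 5 weeks. The old fish therefore differ from the young ones in age and drug together, and the 2 cannot be told apart within this comparison. The third brain group, 5 fish of 27 weeks kept in DMSO alone, took part in the same model. Its values are printed beside those of the 10 libraries for part of the genes named. Every fish gave 1 brain library, no fish is in more than 1 group, and the labels name neither the strain nor the sex of the fish nor the number of tanks.

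Nothobranchius furzeri is a small fish of seasonal African ponds that lives only months and is used to study ageing. Rotenone is a plant compound that binds complex I, the first enzyme of the mitochondrial respiratory chain, and stops it from passing electrons on to ubiquinone. At toxic doses it damages dopamine neurons, and in rodents it is used to model Parkinson disease. The brain of a teleost fish keeps growing in adult life from radial glia, the stem cells that line its ventricles, and this growth slows with age.

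Levels are given in CPM, the read count of a gene scaled to the library total and its TMM factor. A gene is called where edgeR gave an adjusted p under 0.05, and differences are log2 fold changes ± standard error, positive where the rotenone brains are higher. The 10 libraries held 23.76 to 31.7 M counts, with 22239 to 22461 loci detected. Where several loci carry 1 gene symbol, the locus number follows the symbol, and reads may be exchanged between such loci if their sequences are alike.

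The libraries carried the transcripts of brain cells. Per gene length (RPKM), the neuronal RNA-binding gene elavl3 read 75.7 to 89.9 in the young and 56.7 to 61.1 in the rotenone brains, and the synaptic gene snap25a Nfu_g_1_017443 read 519 to 596 and 669.8 to 759. The radial glia gene gfap read 101.2 to 204 and 140.0 to 199, the myelin gene mpz 489.9 to 715 and 322 to 519, and the microglia gene c1qa 5.98 to 11.8 and 11.3 to 15.3. No locus carries the symbol of the microglia marker aif1. Another tissue was unevenly present: the summed level of 12 pituitary genes read 31.1, 30.4, 23.7, 432 and 388 CPM in the young brains MC1 to MC5 and 2139, 1348, 1207, 795 and 2876 CPM in the rotenone brains MR26 to MR30. Every rotenone brain thus lay above every young brain in pituitary transcripts, while the old DMSO brains read 30.96 to 1498 CPM.

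The old brains kept in rotenone held less transcript than young brains of called genes of cell division (24 of 86 tested) and myelin (4 of 33). Rotenone against DMSO at 27 weeks gave 4 of these 86 lower and 1 higher, and 1 of the 33 lower and 0 higher. Called neuropeptide genes were higher in rotenone than in young brains (6 of 36). Called genes of the neuronal precursor list were mostly lower (6, against 2 higher, of 41), as were called sodium and calcium channels (17, against 1 higher, of 76). Of those 17, 12 were also low in MC10, an old DMSO brain described below. Of 20132 genes tested, 1552 were called (7.71%), 607 higher (3.02%) and 945 lower (4.69%), and 4748 had an unadjusted p under 0.05. More than a 2-fold change was called for 145 genes higher and 463 genes lower. The median over all genes was 0.01. In the same model, old DMSO against young DMSO brains gave 420 calls (2.09%), 241 higher (1.2%) and 179 lower (0.889%). Rotenone against DMSO brains of 27 weeks gave 1750 (8.69%), 657 higher (3.26%) and 1093 lower (5.43%). Both comparisons share fish with the one described here, and their values are set beside it for part of the genes named. Groups did not overlap in log2 CPM, in either direction, for 14.9% of all genes, and for 1358 of the 1552 called.

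One library of the old DMSO group, the brain of MC10, stood apart. In it, 953 genes lay 8-fold or more under the average of MC6 to MC9, and its value on the first principal component of the 15 brains (47.2% of variance) was 130.1. The rotenone brains lay between 26 and 55.7 on that component, the other old DMSO brains between -52.6 and -41.2, and the young brains at -44.2, 10.2, -11.3, -46.6 and -27.2. Rotenone brains thus lay toward MC10, and of the young brains MC2 and MC3 lay nearest to them. Of the 953 genes low in MC10, 264 were called lower and 0 higher in rotenone against young brains, with a median of -1.21. Among the 8314 genes within 0.5 log2 units of the other brains in MC10, 440 were called higher and 353 lower.

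Removing from each library the trend along the MC10 difference, with MC10 itself left out, raised the calls to 5010 (24.7%), 2424 higher (12.0%) and 2586 lower (12.8%). Of the 1552 genes, 1539 were called in the same direction in that fit, all 607 of the higher ones and 932 of the lower ones. Without MC10 and with no other change, 4532 were called (22.4%), 1798 higher (8.88%) and 2734 lower (13.5%), and a fit of the 10 libraries alone called 3851. The count fell when other fish were left out, to 855 without MC1, 891 without MC4, 954 without MC5, 963 without MR26, 718 without MR27, 1020 without MR28, 830 without MR29 and 661 without MR30. Without both MC2 and MC3 it was 1421. In the 5 classes of gene length, the longest class, of 5316 to 30371 bases, had a median of -0.097 with 91 genes called higher and 342 lower, and the shortest a median of 0.064 with 117 and 92. The part of RNA quality in these differences was not tested.

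**Figure D1:**
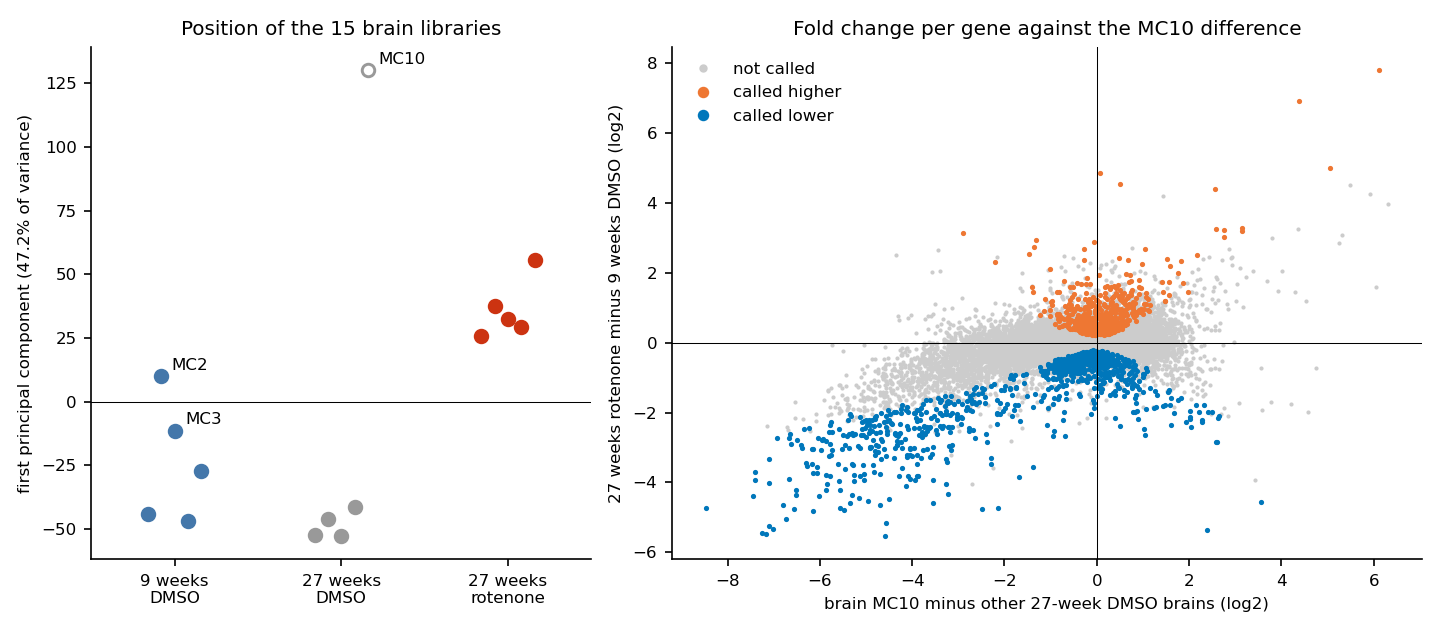
Left, each point is 1 brain library at its position on the first principal component of log2 CPM over 15 libraries (axis without unit), by group, with MC10 as the open circle; the rotenone brains (26 to 55.7) lie between MC10 (130.1) and the other brains. Right, each point is 1 of 20132 genes, with the difference between MC10 and the other 4 old DMSO brains across and the difference between rotenone and young brains upward (both log2); many called decreases lie at the left, among the genes low in MC10.

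The 10 largest increases included a neuropeptide, a mitochondrial carrier, a matrix enzyme and a transcription factor. Neuromedin S (nms), a hypothalamic peptide, read 1.19, 2.11, 2.67, 2.97 and 4.15 CPM in the young and 12.9, 10.01, 10.4, 6.46 and 19.4 CPM in the rotenone brains. Its rise was 2.18 ± 0.50 (adjusted p = 0.0182). All 5 rotenone brains lay above all young ones, but 4 of the old DMSO brains did too (MC7, MC8, MC9 and MC10, 4.74 to 14.02 CPM), and rotenone against old DMSO gave 0.66 ± 0.47 (adjusted p = 0.429).

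The uncoupling protein gene ucp2, whose product sits in the inner mitochondrial membrane, read 3.49, 3.23, 2.43, 3.56 and 2.02 CPM in young and 14.1, 8.26, 6.72, 9.80 and 10.5 CPM in rotenone brains, a rise of 1.74 ± 0.32 (adjusted p = 0.00689). In the old DMSO brains it read 3.78, 4.24, 6.62 and 4.99 CPM, and 12.9 in MC10, so that the groups of 27 weeks overlapped through MC10 alone. Rotenone against old DMSO gave 0.60 ± 0.31 (adjusted p = 0.244) with MC10 and 0.99 ± 0.23 (adjusted p = 0.00429) without it. The T-box transcription factor gene tbx22 read 4, 5.10, 5.66, 4.35 and 4.44 CPM in young and 14.2, 14.6, 9.67, 15.3 and 16.7 CPM in rotenone brains, a rise of 1.58 ± 0.15 (adjusted p = 0.000192). The old DMSO brains, at 5.57 to 6.68 CPM with MC10 included, lay near the young ones, and rotenone against old DMSO gave 1.21 ± 0.14 (adjusted p = 0.00162). For tbx22 the rotenone brains therefore stood above both groups kept in DMSO.

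The same held for TTC28 (2 of 2) Nfu_g_1_006396, a gene of tetratricopeptide repeats, which read 24.4 to 30.2 CPM in young, 25.7 to 29.5 in old DMSO except MC10 (49.0) and 59.5 to 71.8 in rotenone brains. Its rise was 1.28 ± 0.16 (adjusted p = 0.00143) against young and 1.08 ± 0.16 (adjusted p = 0.0038) against old DMSO brains, while the second locus, TTC28 (2 of 2) Nfu_g_1_009419, gave -0.55 ± 0.17 (adjusted p = 0.0659). The kinase gene MAP3K15 (1 of 2) read 18.98, 18.1, 14.9, 16.5 and 14.9 CPM in young and 28.5, 26.8, 46.2, 48.9 and 48.5 CPM in rotenone brains, with MR28 to MR30 well above MR26 and MR27. It rose by 1.25 ± 0.20 (adjusted p = 0.00378) against young and by 1 ± 0.20 (adjusted p = 0.00853) against old DMSO brains.

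The lysyl oxidase gene loxl2b Nfu_g_1_012089, which cross-links collagen, rose by 1.41 ± 0.21 (adjusted p = 0.00348), from 6.23 to 7.99 CPM to 12.8 to 25.6 CPM, and by 0.80 ± 0.21 (adjusted p = 0.031) against old DMSO brains, which read 8.36 to 9.84 CPM except MC10 (17.4). Carbonic anhydrase ca6 rose by 1.33 ± 0.26 (adjusted p = 0.00904) to 5.76 to 15 CPM, a level the old DMSO brains shared (6.77 to 12.7 CPM, 0.02 ± 0.25 (adjusted p = 0.979) between the old groups). Cysteine sulfinic acid decarboxylase (csad Nfu_g_1_019960), an enzyme of taurine synthesis, rose by 1.4 ± 0.34 (adjusted p = 0.0224) with a wide spread, MR26 and MR27 at 18.4 to 23.96 CPM and the other rotenone brains at 7.43 to 9.87 against 4.27 to 5.95 in young brains. The spectrin locus spna2 Nfu_g_1_011898, of the membrane skeleton, rose by 1.26 ± 0.28 (adjusted p = 0.0162), but it is 1 of 14 tested loci with that symbol. Of the others, 6 were also called higher, and the most abundant, spna2 Nfu_g_1_010753, gave 0.05 ± 0.07 (adjusted p = 0.777), so that reads of spectrin may have been split. The uncharacterised si:dkey-11o15.8 Nfu_g_1_019895 rose by 1.43 ± 0.31 (adjusted p = 0.015) from 1.83 to 3.88 to 5.76 to 10.05 CPM.

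Neuropeptides, the peptide transmitters and hormones of neurons, had calls upward only. Of 36 loci tested 6 were called higher and 0 lower (16.7%), the median was 0.23 against 0.010 over all genes, and 32 were above 0. MC10 shared this rise: its median difference from MC6 to MC9 was 0.905 log2 units in these loci. Their summed level was 3002 CPM in MC10 and 2749 to 3555 CPM in rotenone brains. With the MC10 trend removed 10 were higher and 0 lower, and the median was 0.175. Neuropeptide Y (npy), which promotes feeding, read 39.1, 23.03, 26.7, 18.8 and 23.2 CPM in young and 57.7, 69.9, 52.3, 56.3 and 60.8 CPM in rotenone brains, a rise of 1.18 ± 0.16 (adjusted p = 0.00208). The lowest rotenone brain lay above the highest young one, MC1. Old DMSO brains read 36.95 to 47.7 CPM, and rotenone against old DMSO gave 0.56 ± 0.16 (adjusted p = 0.0423).

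Somatostatin (sst1.1), an inhibitory peptide that also restrains growth hormone, read 25.8, 14.5, 16.5, 11.5 and 15.8 CPM in young and 38.7, 40.2, 40.6, 35.9 and 39.6 CPM in rotenone brains and rose by 1.21 ± 0.19 (adjusted p = 0.00348). It was also above old DMSO brains, by 0.65 ± 0.18 (adjusted p = 0.0411). Secretogranin II (scg2b Nfu_g_1_020242), a protein of the granules that store peptides, read 888, 914, 919.7, 877 and 885 CPM in young and 1089, 1256, 1039, 1150 and 1342 CPM in rotenone brains. The rise was small but even (0.39 ± 0.08 (adjusted p = 0.0105)), and it was also seen against old DMSO brains (0.40 ± 0.08 (adjusted p = 0.0084)), which read 840.2 to 937 CPM.

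Tachykinin 1 (tac1 Nfu_g_1_013076), the precursor of substance P, rose by 0.95 ± 0.20 (adjusted p = 0.0129), from 23.6 to 35.8 to 44.7 to 65.3 CPM. The old DMSO brains read 36.4 to 42.7 CPM and MC10 76.0 CPM, and rotenone against old DMSO gave 0.16 ± 0.20 (adjusted p = 0.683) with MC10 and 0.40 ± 0.14 (adjusted p = 0.0359) without it. The releasing hormone gnrh3 (0.61 ± 0.17 (adjusted p = 0.0416)) and the appetite peptide cart1 Nfu_g_1_002393 (1.09 ± 0.32 (adjusted p = 0.0479)) made up the 6. In cart1 Nfu_g_1_002393, MR29 and MR30 (2.25 and 2.24 CPM) lay just above the young brains (1.65 to 2.18 CPM) and the other rotenone brains at 5.12 to 5.51 CPM. Against old DMSO, 5 of the 36 were called higher and 0 lower. Among those not called, orexin (hcrt) gave -0.22 ± 0.46 (adjusted p = 0.84) and ghrh 0.00 ± 0.37 (adjusted p = 0.998). Of 11 pituitary genes tested the thyrotropin subunit tshb rose by 3.19 ± 0.85 (adjusted p = 0.0353), growth hormone gh1 gave 4.19 ± 1.60 (adjusted p = 0.127), and the median was 1.58. The summed pituitary level was also higher in every rotenone than in every young brain, as given above, and the part of pituitary tissue in the neuropeptide differences was not tested.

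Genes of cell division were lower. Of 86 genes of the cell cycle and DNA replication 24 were called lower and 0 higher (27.9%), the median was -0.50, and 11 were above 0. With the MC10 trend removed 46 were lower and 0 higher, and the median was -0.53. The mean log2 CPM of the list was 2.72 to 3.35 in young, 1.85 to 3.05 in old DMSO and 2.1 to 2.65 in rotenone brains. Young and rotenone brains thus did not overlap, which is not particular to this list. The mean of the T-cell list, with 0 calls, also stood apart, at 1.738 to 2.231 in young and 2.267 to 2.455 in rotenone brains. Old DMSO against young brains gave 5 lower and 0 higher of the 86, and rotenone against old DMSO 4 lower and 1 higher. In whole-brain RNA, fewer cells of a type and less RNA per cell cannot be told apart, here and below.

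The condensin subunit smc4, which packs chromosomes for mitosis, read 41.8, 34.6, 31.4, 42.04 and 42.6 CPM in young and 14.04, 16.6, 19.2, 19.5 and 13.2 CPM in rotenone brains and fell by 1.22 ± 0.18 (adjusted p = 0.00288). Old DMSO brains read 17.6, 18.7, 13.4 and 16.9 CPM, with MC10 at 28.4, and rotenone against old DMSO gave -0.20 ± 0.18 (adjusted p = 0.553). The centromere gene cenpf read 32.9, 12.5, 15.7, 31.05 and 34.3 CPM in young brains, with MC2 and MC3 lowest, and 5.16, 6.57, 8.41, 8.30 and 5.30 CPM in rotenone brains, a fall of 1.91 ± 0.34 (adjusted p = 0.00629). For cenpf too the old groups did not differ past the threshold (-0.29 ± 0.33 (adjusted p = 0.656)).

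Another pair of genes was lower in rotenone than in old DMSO brains as well. The condensin subunit ncapd2 read 38.2, 36.3, 27.5, 32.2 and 39.4 CPM in young, 30.05, 29.8, 36.5 and 24.5 in old DMSO, 23.3 in MC10 and 21.2, 17.95, 20.5, 18.1 and 16.9 in rotenone brains, with -0.88 ± 0.13 (adjusted p = 0.00339) against young and -0.61 ± 0.13 (adjusted p = 0.0132) against old DMSO. Separase (ESPL1), the protease that parts sister chromatids, gave -1.5 ± 0.24 (adjusted p = 0.00386) and -0.80 ± 0.24 (adjusted p = 0.0481), from 4.80 to 7.52 CPM in young to 1.65 to 2.61 in rotenone brains. For ESPL1 the brain of MC10, at 1.87 CPM, lay within the range of the rotenone brains.

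Genes of the neuronal precursor list were called in both directions. Of 41 genes 6 were called lower and 2 higher (19.5%), with a median of -0.18 and, with the MC10 trend removed, 16 lower and 4 higher. The RNA-binding gene MEX3A, active in stem and precursor cells, read 189, 128, 122, 146 and 162 CPM in young and 60.0, 62.3, 67.1, 59.9 and 55.5 CPM in rotenone brains, a fall of 1.29 ± 0.12 (adjusted p = 0.000192). The old DMSO brains read 59.3 to 78.3 CPM and did not differ past the threshold from rotenone brains (-0.22 ± 0.11 (adjusted p = 0.252)). The transcription factor sox11a of young neurons fell by 0.71 ± 0.14 (adjusted p = 0.0109), from 39.4 to 66.0 to 27.5 to 34.7 CPM. The neuronal gene elavl3 fell by 0.46 ± 0.07 (adjusted p = 0.00285), from 649 to 766 to 488 to 522 CPM. Rotenone against old DMSO gave 0.28 ± 0.14 (adjusted p = 0.2505) for sox11a and -0.15 ± 0.07 (adjusted p = 0.188) for elavl3.

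The transcription factor neurod2 Nfu_g_1_007515, which in mammals drives differentiation of excitatory forebrain neurons, rose instead. It read 49.0, 44.7, 43.2, 37.02 and 38.8 CPM in young, 38.7, 39.8, 45.2 and 38.4 in old DMSO, 35.7 in MC10 and 75.8, 54.7, 86.2, 91.5 and 92.7 CPM in rotenone brains. The rise was 0.91 ± 0.13 (adjusted p = 0.0028) against young and 1.02 ± 0.13 (adjusted p = 0.00199) against old DMSO brains, with no overlap of rotenone brains with either group. The other gene that rose was tbr1b, also a factor of excitatory forebrain neurons, at 31.4, 19.7, 23.4, 11.04 and 13.4 CPM in young and 40.2, 49.1, 41.2, 45.2 and 44.6 CPM in rotenone brains (1.15 ± 0.25 (adjusted p = 0.0158)). Here the groups stood apart although the young brains MC4 and MC5 were lowest, and rotenone against old DMSO gave 0.70 ± 0.25 (adjusted p = 0.098). The related eomesa Nfu_g_1_010119 did not pass (0.94 ± 0.29 (adjusted p = 0.0599)) except without MC10 (0.93 ± 0.29 (adjusted p = 0.0345)), and its young brains ranged widely, from 25.2 to 110.1 CPM.

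Enzymes that write and read DNA methylation and repressive chromatin were called mostly downward. Of 65 genes 12 were called lower and 0 higher (18.5%), 2 of the 12 with MC10 at least 1 log2 unit below its group, and the median was -0.06. With the MC10 trend removed 15 were lower and 4 higher, without MC10 18 and 2, and by DESeq2 15 and 1. The Polycomb subunit cbx2 Nfu_g_1_016504 read 19.2, 18.03, 17.1, 16.6 and 18.1 CPM in young, 14.96, 14.2, 13.4 and 13.7 in old DMSO, 13.6 in MC10 and 11.6, 9.38, 9.47, 8.47 and 6.71 CPM in rotenone brains. Old DMSO brains lay between the others, and cbx2 gave -0.96 ± 0.12 (adjusted p = 0.00161) against young and -0.61 ± 0.12 (adjusted p = 0.00864) against old DMSO. The de novo methyltransferase dnmt3ab Nfu_g_1_021728 fell by 0.70 ± 0.10 (adjusted p = 0.00285) to 55.4 to 62.6 CPM, at the level of old DMSO brains (49.9 to 68.0 CPM, -0.03 ± 0.10 (adjusted p = 0.9)).

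The dioxygenase tet3, which starts the removal of DNA methylation, read 194, 124, 119.8, 186 and 164 CPM in young and 94.99, 88.9, 86.1, 80.9 and 90.8 CPM in rotenone brains. It fell by 0.83 ± 0.14 (adjusted p = 0.00472) and was below old DMSO brains too (-0.58 ± 0.14 (adjusted p = 0.0202)), although MC10, at 101.2 CPM, was the lowest of these. The scarce dnmt3b Nfu_g_1_001460 fell by 1.61 ± 0.26 (adjusted p = 0.00433), from 1.19 to 2.19 to 0.383 to 0.712 CPM. The 2 loci of uhrf1, which guides maintenance methylation in dividing cells, were called in this list as in that of cell division (-1.5 ± 0.40 (adjusted p = 0.0354) and -1.07 ± 0.31 (adjusted p = 0.0459)).

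Structural genes of myelin were lower. Of 33 genes of myelin and oligodendrocytes 4 were called lower and 0 higher (12.1%), the median was -0.40, and with the MC10 trend removed 12 were lower. The 4 were structural genes of the sheath. Myelin basic protein (mbpb Nfu_g_1_016795) read 1235, 1164, 1122, 1632 and 1310 CPM in young and 469, 955, 809, 742 and 757 CPM in rotenone brains and fell by 0.79 ± 0.19 (adjusted p = 0.0215). The tight-junction gene cldn19 fell by 0.56 ± 0.14 (adjusted p = 0.0278), proteolipid protein plp1b by 0.61 ± 0.17 (adjusted p = 0.0386) and myelin protein zero (mpz) by 0.49 ± 0.14 (adjusted p = 0.0445), with MR26 lowest in all 4. Young and rotenone brains overlapped in mpz alone of the 4.

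In none of the 4 did the old groups differ past the threshold, with adjusted p of 0.412 to 0.849 and old DMSO ranges of 559.8 to 988 CPM for mbpb Nfu_g_1_016795 and 1966 to 2703 CPM for mpz. The lineage genes of oligodendrocytes gave smaller values, 0.13 ± 0.20 (adjusted p = 0.762) for olig2 and -0.16 ± 0.11 (adjusted p = 0.418) for sox10 Nfu_g_1_019794. Radial glia and astroglia showed no common shift: of 38 genes 1 was higher and 2 lower, with a median of 0.03. Aldolase C (aldocb Nfu_g_1_022157), also an enzyme of glycolysis, rose by 0.35 ± 0.07 (adjusted p = 0.011), the receptor notch1b Nfu_g_1_006683 fell by 0.68 ± 0.17 (adjusted p = 0.0248) and prom1a by 0.48 ± 0.12 (adjusted p = 0.0273).

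**Figure D2:**
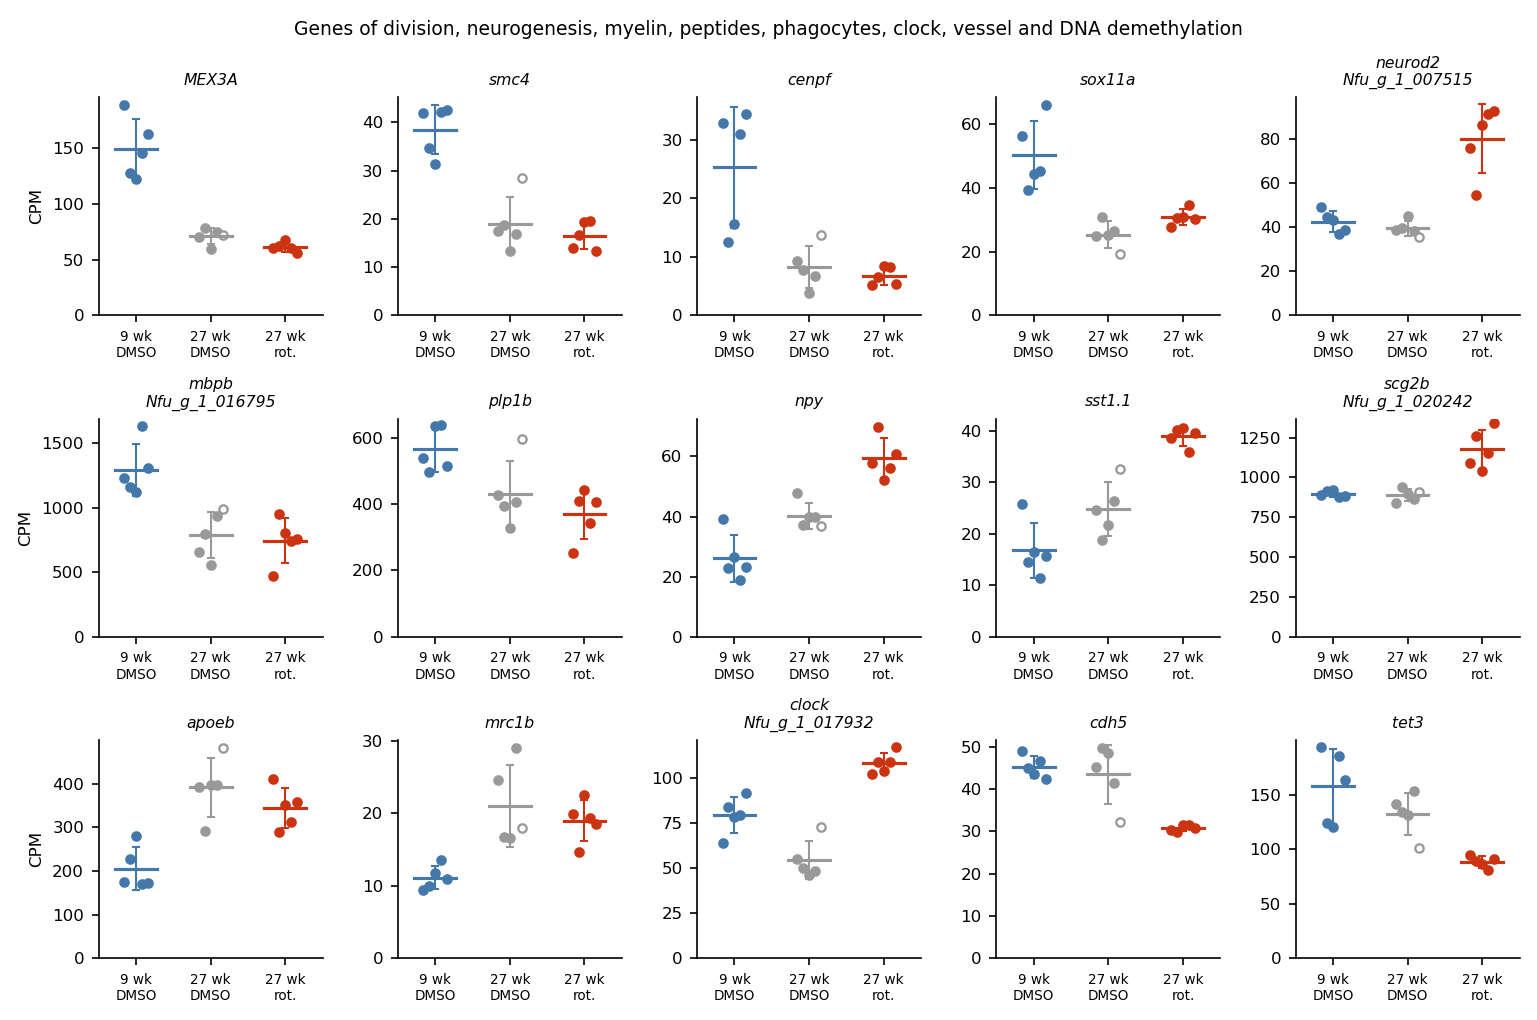
Level in CPM (vertical axes from 0) of 15 genes by group; points are single brains (MC10 open), lines and bars are mean and SD (n = 5). Old DMSO brains share the low level of rotenone brains in MEX3A, smc4, cenpf and sox11a, and lie apart from them in neurod2, scg2b and clock.

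The 10 largest decreases included an ion transporter and a glutamate receptor, and all 10 were among the genes low in MC10. The chloride transporter slc12a5 Nfu_g_1_020841, which makes GABA inhibitory, read 286, 89.0, 134, 336 and 221 CPM in young and 10.4, 2.75, 18.2, 6.51 and 1.89 CPM in rotenone brains, a fall of 4.74 ± 0.99 (adjusted p = 0.0127). The old DMSO brains read 315, 312, 309.7 and 296 CPM, but MC10 read 0.794. With the MC10 trend removed the difference was -1.45 ± 0.20 (adjusted p = 0.000243).

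The NMDA receptor locus grin2bb Nfu_g_1_019702 read 38.4, 7.72, 11.6, 49.4 and 19.6 CPM in young, 77.3, 53.1, 64.4 and 50.3 in old DMSO, 0.561 in MC10 and 1.15, 0.845, 0.916, 1.13 and 0.654 CPM in rotenone brains. It fell by 4.76 ± 0.87 (adjusted p = 0.00689), and with the trend removed gave -2.15 ± 0.23 (adjusted p = 2.39e-05). In both genes MC2 and MC3 were the lowest young brains, still above every rotenone brain. The ubiquitin ligase locus herc2 Nfu_g_1_014732 (-5.26 ± 0.92 (adjusted p = 0.00574)) behaved alike, reading 0.701 CPM in MC10.

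Others of the 10 were the membrane protein lppr4a (-4.64 ± 0.82), the sialyltransferase st6gal1 (-4.22 ± 0.89), the Ras inhibitor nf1b (-4.2 ± 0.76), the histone methyltransferase mll4b Nfu_g_1_002217 (-4.03 ± 0.83), the protocadherin PCDHAC2 (1 of 2) (-3.92 ± 0.84) and the chromatin remodeller chd4a Nfu_g_1_021419 (-3.81 ± 0.73), with adjusted p from 0.00624 to 0.0145. In these 9 genes the difference between MC10 and its group ran from -8.47 to -5.78, and the decrease remained past the threshold with the trend removed, at -2.44 to -1.18. Against old DMSO the 9 gave -5.71 to -3.78.

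Several of these symbols have another locus that was not called. The other herc2 locus, herc2 Nfu_g_1_014725, gave -0.17 ± 0.10 (adjusted p = 0.319), grin2bb Nfu_g_1_013885 gave -0.14 ± 0.15 (adjusted p = 0.623), mll4b Nfu_g_1_002212 gave 0.04 ± 0.17 (adjusted p = 0.921), and the most abundant chd4a locus, chd4a Nfu_g_1_016252, gave 0.22 ± 0.13 (adjusted p = 0.357). The files do not say whether such loci are separate copies or pieces of 1 gene, so these decreases hold for the locus named and not for the gene. What RNA quality in MC10 and the rotenone brains has to do with them was not tested. The share of reads from mitochondrial ribosomal RNA was 0.430, 0.875, 0.627, 0.423 and 0.421% in young, 0.734, 0.605, 0.718, 0.716 and 0.751% in rotenone brains and 1.08% in MC10. In the old DMSO brains MC6 to MC9 it was 0.623, 0.5685, 0.7055 and 0.728%.

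Sodium and calcium channels, which carry the electrical signals of neurons, had 17 of 76 loci called lower and 1 higher (23.7%), with a median of -0.36. Of the 17, 12 had MC10 at least 1 log2 unit below its group, and with the trend removed 25 were lower, 7 higher and the median was -0.10. The sodium channel subunit scn4ba read 3.49, 1.26, 1.87, 6.17 and 3.82 CPM in young and 0.536, 0.282, 0.441, 0.334 and 0.378 CPM in rotenone brains and fell by 3.06 ± 0.57 (adjusted p = 0.00747). The T-type calcium channel cacna1i Nfu_g_1_019520 read 12.1 to 42.4 in young, 38.01 to 59.8 in old DMSO, 2.90 in MC10 and 3.51 to 4.94 CPM in rotenone brains, a fall of 2.45 ± 0.55 (adjusted p = 0.0168). In scn4ba too, MC10 at 0.654 CPM lay next to the rotenone brains. Rotenone against old DMSO gave 20 of the 76 loci lower and 1 higher.

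Receptors of glutamate, the main excitatory transmitter, had 8 of 52 loci lower and 1 higher (17.3%), 6 of the 8 low in MC10 by at least 1 log2 unit, and a median of -0.22. Of those with MC10 less than 1 log2 unit below its group, the obligatory NMDA receptor subunit grin1a Nfu_g_1_017230 read 706, 700.0, 594, 848 and 627 CPM in young, 733, 632, 663 and 713 in old DMSO, 381 in MC10 and 409, 361, 388, 383 and 380.2 CPM in rotenone brains. It fell by 0.85 ± 0.15 (adjusted p = 0.00574), and by 0.70 ± 0.15 (adjusted p = 0.012) against old DMSO, although MC10 lay within the rotenone range. The subunit grin2aa fell by 0.72 ± 0.16 (adjusted p = 0.0178), from 46.5 to 82.4 to 36.1 to 39.3 CPM. For grin2aa MC10, at 34.4 CPM, lay below every rotenone brain, and rotenone against old DMSO was not called (-0.44 ± 0.16 (adjusted p = 0.112)). With the trend removed grin1a Nfu_g_1_017230 gave -0.79 ± 0.08 (adjusted p = 1.03e-05) and grin2aa -0.65 ± 0.11 (adjusted p = 0.000483).

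Genes of the inhibitory transmitter GABA had 3 of 42 lower and 1 higher (9.52%, against 7.71% of all genes), with a median of -0.13. With the MC10 trend removed the balance turned, to 6 lower and 10 higher and a median of 0.07. The transporter slc6a13 Nfu_g_1_008710 rose by 0.76 ± 0.21 (adjusted p = 0.0416), although MC5 at 28.6 CPM lay above MR26 at 22.3 CPM. Of potassium channels 8 were lower, 6 of them low in MC10, and 2 higher (9.43% of those tested), a balance that turned to 10 lower and 21 higher with the trend removed. Among the higher ones was kcnb2 Nfu_g_1_020269, of the delayed rectifiers (1.03 ± 0.16 (adjusted p = 0.00385)). Of cholinergic genes 4 of 24 were lower (16.7%), 2 of them low in MC10 by at least 1 log2 unit. With the trend removed 5 were lower and 2 higher. Among the 4 were both loci of choline acetyltransferase, chat Nfu_g_1_023167 (-0.42 ± 0.11 (adjusted p = 0.0358)) and chat Nfu_g_1_002978 (-0.58 ± 0.16 (adjusted p = 0.0391)), whose groups overlapped.

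Transmitter release went in both directions. Of 68 synaptic vesicle genes 6 were lower, 4 of them low in MC10, and 2 higher (11.8%), a balance that turned to 12 lower and 17 higher with the MC10 trend removed. Both of the 2 higher ones were loci of the membrane-fusion gene snap25a. The locus snap25a Nfu_g_1_022084 read 119, 147, 146, 119.8 and 121 CPM in young and 186, 192, 153, 174 and 196 CPM in rotenone brains (0.46 ± 0.09 (adjusted p = 0.00856)), and snap25a Nfu_g_1_017443 rose by 0.35 ± 0.09 (adjusted p = 0.0274). The vesicle glycoprotein SV2A Nfu_g_1_004205 fell by 0.34 ± 0.07 (adjusted p = 0.015), from 289 to 375 to 243 to 277 CPM.

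Complex I, which rotenone binds, had 1 called locus. Of 32 loci listed as its nuclear subunits by gene symbol 1 was called higher and 0 lower (3.12%), with a median of -0.03. The others ran from -0.20 for ndufs4 to 0.36 for ndufa4 Nfu_g_1_007565, whose place in this list rests on its symbol alone. The 1 called, ndufs1 Nfu_g_1_017667, of an iron-sulfur subunit, read 27.02, 36.2, 33.3, 29.03 and 29.03 CPM in young and 49.1, 45.1, 37.5, 36.7 and 62.5 CPM in rotenone brains (0.58 ± 0.15 (adjusted p = 0.0293)). The second and more abundant locus, ndufs1 Nfu_g_1_014057, read 224 to 264 and 261 to 274 CPM and was not called (0.12 ± 0.09 (adjusted p = 0.474)). Also not called were ndufa4 Nfu_g_1_007565 at 0.36 ± 0.19 (adjusted p = 0.266) and ndufs4 at -0.20 ± 0.21 (adjusted p = 0.642), though the groups of ndufs4 did not overlap (38.96 to 40.9 against 30.2 to 38.3 CPM). MC10 read 77.5 CPM of ndufs4 against 30.8 to 37.2 in the rest of its group, and with the trend removed ndufs4 gave -0.26 ± 0.09 (adjusted p = 0.0399).

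The other parts of the respiratory chain gave no call in edgeR. Complexes II to V had 0 of 37 called and a median of -0.02, the 13 subunits encoded in mitochondrial DNA 0 called with a median of 0.21 and all 13 above 0, and mitochondrial ribosomal proteins 0 of 63 with a median of 0.05. In edgeR with the trend removed, complexes II to V had 2 higher and 8 lower, the 13 subunits 3 higher and 0 lower, and complex I 2 higher and 3 lower. In complexes II to V 2 genes were higher and 0 lower at an unadjusted p under 0.05, and 1 was higher by DESeq2, against 0 by either measure in the mitochondrially encoded subunits and the mitochondrial ribosome. Reads from the mitochondrial coding genes made up 6.70, 9.35, 8.56, 6.96 and 7.05% of young and 8.73, 8.18, 8.68, 9.05 and 9.13% of rotenone libraries. MC2 and MC3, the young brains nearest the rotenone ones on the first component, were the highest young brains in this share.

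Of 25 genes of the mitochondrial stress response 3 were called lower and 0 higher (12%), but the median was 0.10 and 18 were above 0. At an unadjusted p under 0.05, 5 were higher and 3 lower. Without MC10, 6 were called higher and 3 lower. The 3 called lower were both ATF5 loci, of a transcription factor of that response, ATF5 (2 of 2) at -0.58 ± 0.11 (adjusted p = 0.00638) and ATF5 (1 of 2) at -1.19 ± 0.32 (adjusted p = 0.0355), and the stress factor ddit3 at -0.37 ± 0.11 (adjusted p = 0.0475). ATF5 (2 of 2) read 67.4, 69.3, 69.4, 59.0 and 72.8 CPM in young and 49.5, 42.8, 41.6, 42.5 and 48.8 CPM in rotenone brains, and old DMSO brains read 42.9 to 64.5 CPM. Rotenone against old DMSO gave -0.19 ± 0.11 (adjusted p = 0.284) for ATF5 (2 of 2) and -0.55 ± 0.32 (adjusted p = 0.314) for ATF5 (1 of 2). For ddit3 it gave -0.42 ± 0.11 (adjusted p = 0.0284). ATF5 (1 of 2) was low in MC10, at 0.701 CPM. Antioxidant genes had 2 of 40 higher and 0 lower (5%), the extracellular dismutase SOD3 (1 of 3) at 1.1 ± 0.25 (adjusted p = 0.0186) and NFE2L1 (1 of 2) Nfu_g_1_000926, a transcription factor of stress and proteasome genes, at 0.31 ± 0.08 (adjusted p = 0.0281).

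Markers of dopamine neurons gave small values. Tyrosine hydroxylase (th), which makes the dopamine precursor, read 12.1, 7.995, 7.77, 8.90 and 9.71 CPM in young and 7.31, 9.45, 9.77, 8.47 and 11.1 CPM in rotenone brains (-0.01 ± 0.15 (adjusted p = 0.98)). The groups overlapped, as they did for the decarboxylase ddc (-0.15 ± 0.10 (adjusted p = 0.415)), the dopamine transporter SLC6A3 (0.24 ± 0.17 (adjusted p = 0.436)) and the vesicle transporter slc18a2 (0.01 ± 0.14 (adjusted p = 0.976)). None of the 4 passed in edgeR with the trend removed, with adjusted p from 0.113 to 0.752. Their standard errors were 0.10 to 0.17, which is not a limit of detection. SLC6A3 lay above its standard error and was not called, so differences larger than these errors could be missed with these libraries.

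Of the 38 monoamine genes 1 rose and 1 fell (5.26%). The serotonin receptor htr1b Nfu_g_1_015334 rose by 0.45 ± 0.13 (adjusted p = 0.0481). The dopamine receptor drd1 fell by 1.31 ± 0.38 (adjusted p = 0.047), from 4.42 to 9.05 to 1.91 to 3.60 CPM, and MC10 lay lower still at 1.54 CPM.

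A list of genes linked to Parkinson disease had 4 of 28 called higher and 2 lower (21.4%), with a median of 0.03. The kinase lrrk2 read 30.1, 36.4, 38.6, 40.03 and 26.98 CPM in young and 23.2, 20.4, 22.6, 22.7 and 21.9 CPM in rotenone brains and fell by 0.63 ± 0.15 (adjusted p = 0.0203). The lysosomal ATPase atp13a2 Nfu_g_1_002320 read 129, 127, 126, 129.8 and 114 CPM in young and 107.4, 86.8, 92.0, 90.4 and 94.7 CPM in rotenone brains, a fall of 0.41 ± 0.11 (adjusted p = 0.0377), and lay below old DMSO brains by 0.53 ± 0.11 (adjusted p = 0.0119). The clathrin-uncoating kinase gak rose by 0.31 ± 0.08 (adjusted p = 0.031) against young and by 0.50 ± 0.08 (adjusted p = 0.00439) against old DMSO brains, and beta-synuclein (sncb Nfu_g_1_006572) rose by 0.69 ± 0.19 (adjusted p = 0.0363).

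The remaining calls of that list were the kinase pink1 and the ubiquitin ligase park2, which together mark damaged mitochondria for removal. The gene pink1 read 33.8, 26.1, 31.3, 31.7 and 32.6 CPM in young, 34.1, 38.5, 32.6 and 33.9 in old DMSO, 24.1 in MC10 and 40.7, 40.7, 39.8, 41.7 and 40.1 CPM in rotenone brains. The rotenone brains lay in a narrow band above all young and old DMSO brains, with 0.39 ± 0.11 (adjusted p = 0.0428) against young and 0.31 ± 0.11 (adjusted p = 0.0835) against old DMSO. The gene park2 read 23.9, 25.3, 23.5, 24.6 and 23.9 CPM in young and 34.3, 31.1, 27.95, 31.9 and 29.4 CPM in rotenone brains (0.35 ± 0.10 (adjusted p = 0.0394)), and old DMSO brains read 26.3 to 37.6 CPM (0.03 ± 0.10 (adjusted p = 0.878)).

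**Figure D3:**
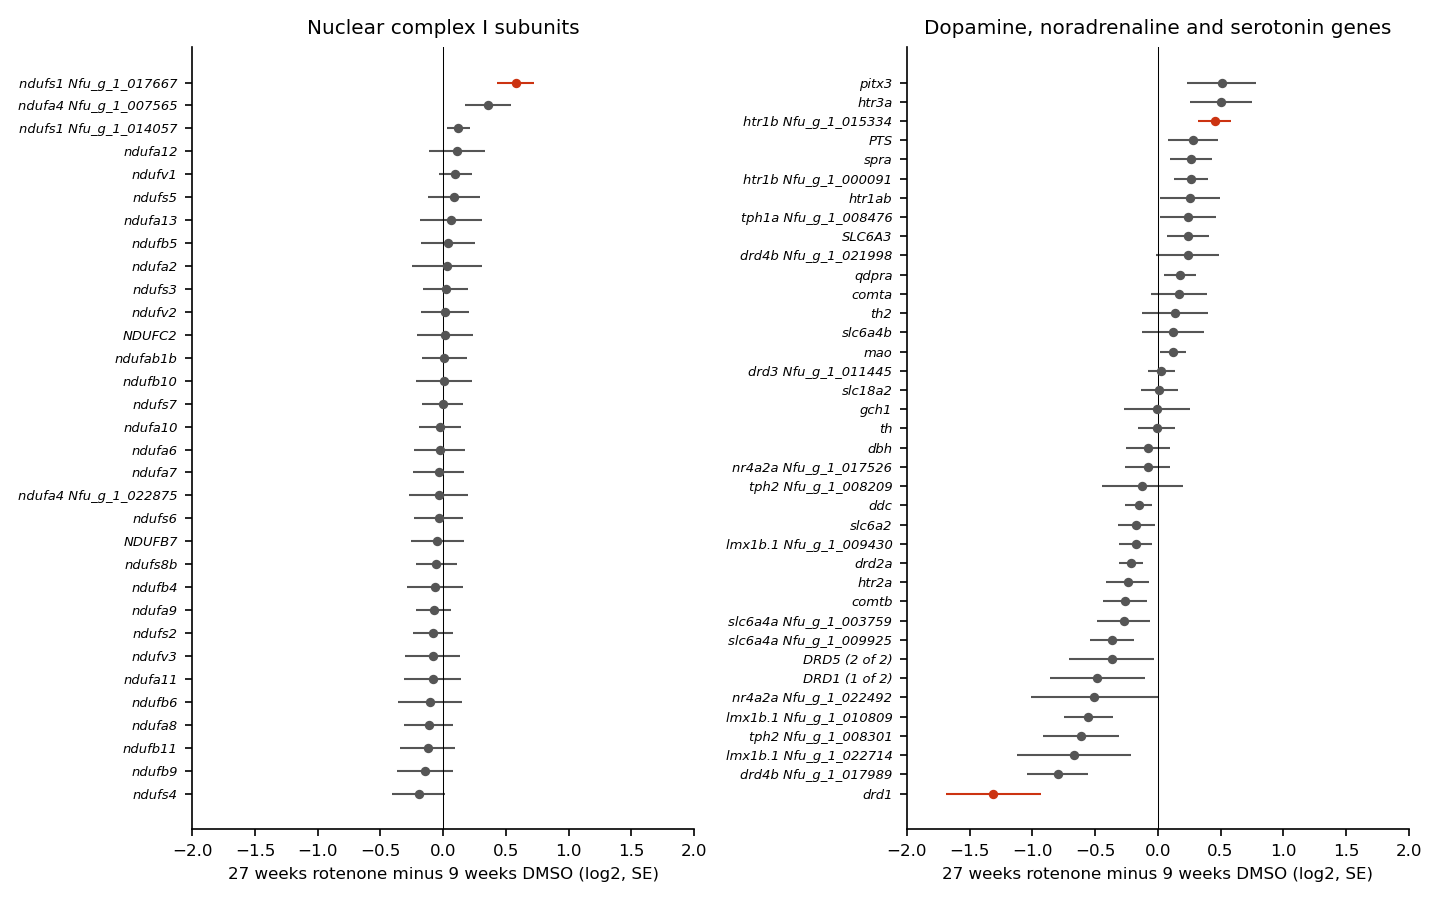
Log2 fold change in rotenone against young brains (horizontal axis, bars are SE). Left, 32 loci of the nuclear complex I list, and right, 38 loci of dopamine, noradrenaline and serotonin. Red marks an adjusted p under 0.05. Apart from ndufs1 Nfu_g_1_017667, complex I loci lie near 0, and th lies at -0.01 among the monoamine genes.

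Immune lists showed small numbers of calls, at 0 to 15.8% of loci tested against 7.71% of all genes. The calls were upward in the lists of microglia, complement and interferon genes and in both directions among B-cell genes. Of 45 microglia and macrophage genes 2 were called higher and 0 lower (4.44%), with a median of 0.47, whereas old DMSO against young brains gave 10 higher and 0 lower. Apolipoprotein apoeb, a lipid carrier of glia and microglia, read 174, 228, 281, 169.8 and 173 CPM in young and 411, 291, 350.4, 312 and 358 CPM in rotenone brains and rose by 0.75 ± 0.16 (adjusted p = 0.0143). The mannose receptor mrc1b, of macrophages, read 9.42, 9.93, 11.8, 13.5 and 10.9 and 19.8, 14.7, 22.5, 19.4 and 18.5 CPM and rose by 0.77 ± 0.17 (adjusted p = 0.0162). In both, the old DMSO brains overlapped the rotenone brains (291 to 483 and 16.6 to 29.05 CPM), with -0.19 ± 0.16 (adjusted p = 0.526) for apoeb and -0.14 ± 0.17 (adjusted p = 0.661) for mrc1b between the old groups.

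Complement, the cascade that tags cells for removal, had 3 of 31 higher and 0 lower (9.68%, near the 7.71% of all genes) and a median of 0.63. Its inhibitor cfh read 8.10, 6.02, 4.35, 5.77 and 6.83 CPM in young and 16.4, 10.7, 8.52, 11.01 and 12.2 CPM in rotenone brains (0.92 ± 0.20 (adjusted p = 0.015)), and the central component c3a Nfu_g_1_007235 rose by 1.30 ± 0.35 (adjusted p = 0.0355), with MR28 at 1.63 CPM inside the young range. The inhibitor SERPING1 rose by 0.84 ± 0.24 (adjusted p = 0.0458). Rotenone against old DMSO gave 0.02 ± 0.20 (adjusted p = 0.967) for cfh, 0.20 ± 0.34 (adjusted p = 0.772) for c3a Nfu_g_1_007235 and 0.40 ± 0.24 (adjusted p = 0.326) for SERPING1. The starters of the classical pathway were not called, with 0.61 ± 0.25 (adjusted p = 0.154) for c1qa, 0.24 ± 0.36 (adjusted p = 0.757) for c1qb and 0.78 ± 0.24 (adjusted p = 0.0607) for c1qc. The interferon-induced kinase eif2ak2 Nfu_g_1_016147 rose by 0.83 ± 0.16 (adjusted p = 0.00904), the only call among 28 interferon genes (3.57%). The interferon list as a whole leaned the other way, with a median of -0.18, 10 genes above 0 and 18 below.

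Antigen presentation, T-cell and neutrophil genes had 0 calls in edgeR among 17, 9 and 10 tested. At an unadjusted p under 0.05 they had 2 higher and 2 lower, 2 higher and 0 lower, and 3 higher and 0 lower, and DESeq2 called 1 higher and 1 lower, 1 higher, and 1 higher. Of B-cell genes 1 of 19 was higher and 2 lower (15.8%), the receptor chain CD79B (2.37 ± 0.57 (adjusted p = 0.0221)), scarce at 0.115 to 1.02 CPM in rotenone brains and 0.0680 to 0.206 in young ones, and the transcription factors ebf1b (-1.52 ± 0.38 (adjusted p = 0.0274)) and pax5 (-2.37 ± 0.64 (adjusted p = 0.0358)), which are also active in neurons. For ebf1b and pax5 MC10 lay -2.74 and -3.40 from its group. With the MC10 trend removed, B-cell genes had 6 higher and 2 lower, antigen presentation 0 and 1, T-cell genes 1 and 0, and neutrophil genes 1 and 0.

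Of 39 genes of vessel cells 2 were called higher and 2 lower (10.3%), near the 7.71% of all genes. Vascular cadherin (cdh5), the junction protein of endothelium, read 49.0, 45.1, 43.7, 46.6 and 42.4 CPM in young, 45.3, 49.8, 48.5 and 41.5 in old DMSO, 32.3 in MC10 and 30.3, 29.9, 31.5, 31.4 and 30.8 CPM in rotenone brains. The rotenone brains lay in a narrow band below both groups, with -0.56 ± 0.10 (adjusted p = 0.00638) against young and -0.50 ± 0.10 (adjusted p = 0.00936) against old DMSO. The pericyte channel subunit abcc9 gave -0.66 ± 0.12 (adjusted p = 0.00781) and -0.59 ± 0.12 (adjusted p = 0.0118).

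The mural-cell gene rgs5a rose by 0.67 ± 0.14 (adjusted p = 0.015), from 28.03 to 31.8 to 39.8 to 57.1 CPM, a level shared by the old DMSO brains (-0.08 ± 0.14 (adjusted p = 0.795)), as did the glucose transporter slc2a1b (0.47 ± 0.11 (adjusted p = 0.0196)). Collagens and matrix had 3 genes higher and 9 lower (11.4% of those tested), with the matrix glycoprotein tenascin C (tnc Nfu_g_1_006372) at -0.43 ± 0.09 (adjusted p = 0.0144) and COL25A1, a collagen of neurons, at -0.32 ± 0.06 (adjusted p = 0.0102). Between the old groups tnc Nfu_g_1_006372 gave 0.03 ± 0.09 (adjusted p = 0.877) and COL25A1 -0.05 ± 0.06 (adjusted p = 0.701). Of 11 red-cell genes tested 2 fell (18.2%), the membrane-skeleton gene epb41b by 0.69 ± 0.09 (adjusted p = 0.00161) and an embryonic globin, hbae1 Nfu_g_1_007603, from 0.199 to 2.14 CPM in young to at most 0.0417 CPM in rotenone brains (adjusted p = 0.0143). The summed level of red-cell genes was 778 to 2015 CPM in young and 394 to 707 CPM in rotenone brains. In the old DMSO brains MC6 to MC9 it was 608, 586, 375 and 830.5 CPM, and in MC10 3747 CPM. The part of blood left in the tissue was not tested.

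Among clock genes 4 of 45 were higher and 1 lower (11.1%). The circadian activator clock Nfu_g_1_017932 read 64.1, 83.6, 78.1, 79.1 and 91.6 CPM in young, 54.96, 49.8, 46.3 and 48.6 in old DMSO, 72.5 in MC10 and 101.99, 108, 103.7, 108.7 and 117 CPM in rotenone brains. It rose by 0.45 ± 0.12 (adjusted p = 0.0354) against young and by 0.99 ± 0.12 (adjusted p = 0.00162) against old DMSO, which in turn lay below young brains (-0.54 ± 0.12 (adjusted p = 0.0317)). The output factor tefa (0.51 ± 0.12 (adjusted p = 0.0178)) rose to the level of old DMSO brains (-0.07 ± 0.12 (adjusted p = 0.761) between the old groups). The labels give no time of day of sampling.

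Chaperones leaned upward. Of 26 cytosolic ones 3 were higher and 0 lower (11.5%), with a median of 0.24. The heat shock gene hspa4a read 73.5, 69.9, 77.2, 80.0 and 85.8 CPM in young and 95.7, 118, 111, 117 and 108.9 CPM in rotenone brains and rose by 0.51 ± 0.11 (adjusted p = 0.0151), and by 0.52 ± 0.11 (adjusted p = 0.0126) against old DMSO. The others were hsp90aa1.2 (0.55 ± 0.13 (adjusted p = 0.0243)) and hsp70.1 (0.97 ± 0.27 (adjusted p = 0.0394)). Of 22 genes of the endoplasmic reticulum 2 were higher, dnajc3 (0.49 ± 0.12 (adjusted p = 0.0278)) and p4hb Nfu_g_1_007226 (0.27 ± 0.08 (adjusted p = 0.0435)), and 1 lower, ddit3 (13.6%). Against old DMSO dnajc3 gave 0.31 ± 0.12 (adjusted p = 0.136) and p4hb Nfu_g_1_007226 0.10 ± 0.08 (adjusted p = 0.4415).

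Lysosome and autophagy genes had 3 of 83 higher and 0 lower (3.61%), near the background of 3.02%. They were cathepsin F ctsf (0.37 ± 0.07 (adjusted p = 0.00978)), prosaposin psap (0.64 ± 0.13 (adjusted p = 0.0127)) and gabarapa (0.34 ± 0.08 (adjusted p = 0.0264)). Glycolysis had 3 of 46 higher and 1 lower (8.7%), with the phosphofructokinase PFKP (1 of 2) Nfu_g_1_013362 at 0.41 ± 0.11 (adjusted p = 0.0349). Insulin and growth signalling had 4 of 55 higher and 5 lower (16.4%), and 11 and 9 with the MC10 trend removed: the mTOR partner RPTOR Nfu_g_1_007112 rose by 0.39 ± 0.08 (adjusted p = 0.0092) and the S6 kinase rps6kb1b Nfu_g_1_000459 by 0.40 ± 0.10 (adjusted p = 0.0234), whereas the insulin receptor locus insra Nfu_g_1_022606 fell by 3.92 ± 0.71 (adjusted p = 0.00645) and the growth hormone receptor ghra Nfu_g_1_009044 by 2.79 ± 0.60 (adjusted p = 0.0143), both low in MC10 (-5.05 and -4.84). Among 23 glucocorticoid targets errfi1, a brake on growth factor receptors, was the only call, at 0.41 ± 0.07 (adjusted p = 0.00507) (4.35%).

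Some lists showed no call in edgeR. Cytosolic ribosomal proteins had 0 of 74 called, a median of 0.14 and all 74 above 0, and with the MC10 trend removed 4 higher and 0 lower and a median of 0.10. DESeq2 called 0 of the 74, and 0 lay under an unadjusted p of 0.05. The proteasome had 0 of 42 called (median 0.07, 1 lower at an unadjusted p under 0.05, 0 by DESeq2), with the trend removed again 0 and a median of -0.01.

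Cholesterol synthesis had 0 of 22 called in edgeR (median -0.12), with 2 higher and 4 lower at an unadjusted p under 0.05 and 1 lower by DESeq2. Its smallest p was that of squalene epoxidase, SQLE (1 of 2), at -1.26 ± 0.43 (adjusted p = 0.089). Immediate early genes, which follow neuronal activity, had 0 of 36 (median -0.04), with 3 higher and 2 lower at an unadjusted p under 0.05 and 1 higher by DESeq2. Over all lists, 192 of 1995 loci tested were called (9.62%, against 7.71% of all genes).

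**Figure D4:**
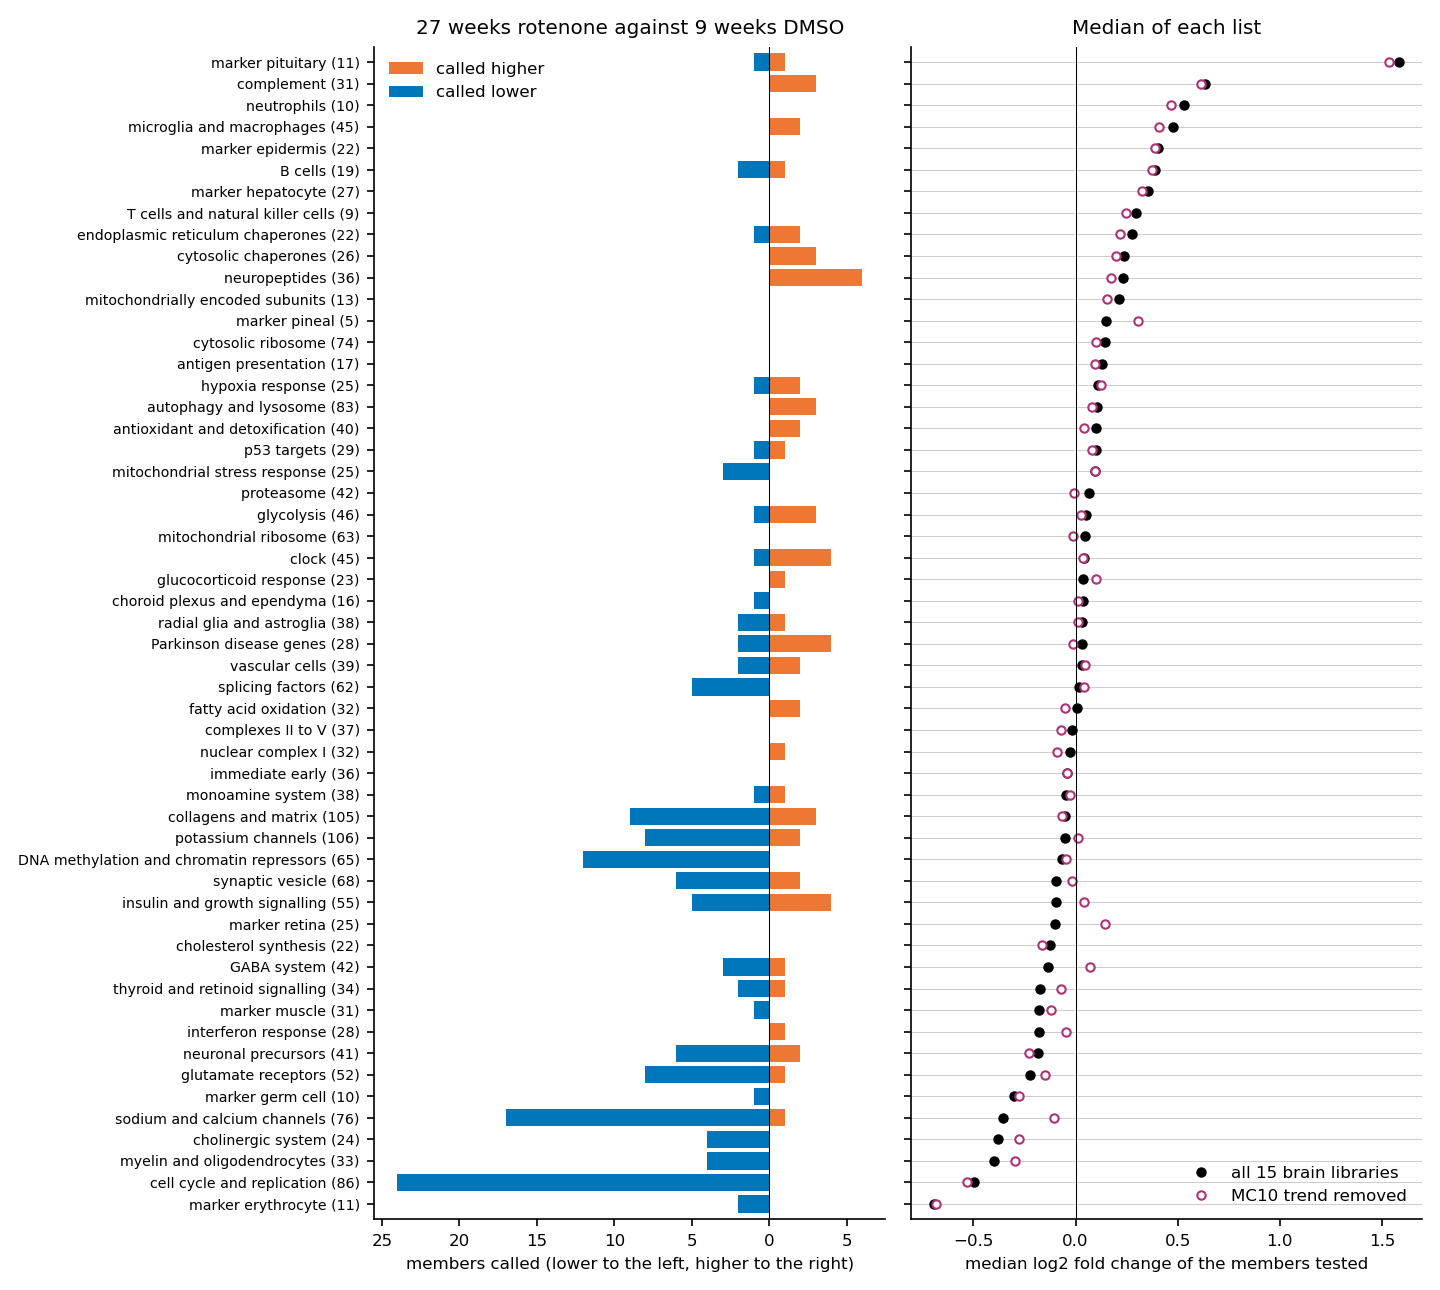
Left, number of list members called lower (leftward) and higher (rightward) in rotenone against young brains, with the number tested in brackets; right, median log2 fold change of each list in the fit of 15 brain libraries (filled) and with the MC10 trend removed (open). Cell cycle and replication, with 24, and sodium and calcium channels, with 18, have the most calls of the lists shown, and the sodium and calcium channel median moves from -0.36 to -0.10 when the trend is removed.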

How the data were processed

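Total RNA was extracted from whole brains and made into libraries with a TruSeq RNA kit, per the labels' protocols; the reads were handled with CASAVA 1.8.0 and 1.8.2, bcl2fastq 1.8.4, TopHat2 2.0.6 and featureCounts 1.4.3-p1, per the submitters' processing notes. Neither genome build nor annotation is named in these sources, so no coordinates or sequences are printed. The deposited count table holds whole-number read counts, not normalized, for 23564 loci in 185 libraries, 22036 of them with a symbol in the table. The deposited RPKM table holds the same counts scaled by the authors for locus length and library size. It was used for levels of brain markers and, set against the counts, to derive gene lengths. A length was obtained for 17610 loci, and the classes of gene length hold only such loci.

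Counts of 15 brain libraries were modelled with edgeR 4.0.16 under R 4.3.3 by its robust quasi-likelihood test after filterByExpr and TMM scaling, 1 mean per group, and p was adjusted by Benjamini and Hochberg over all 20132 genes tested. The fit was checked on simulated counts. No 2 libraries of a group agreed within sampling noise (lowest chi-square per degree of freedom 9.83). The labels name no batch for these libraries. The p-values rest on the spread between fish within groups, estimated over all 15 brains with MC10 included.

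Named genes are the 10 largest increases and the 10 largest decreases among called genes with a symbol, at least 2 log2 CPM on average, no overlap of the groups and a sign that held whichever of the 10 libraries was dropped. To these come, from each of 54 lists, the called members with the smallest p, at most 4 (or the 2 smallest p where none was called), 4 genes of the complex I list and 4 dopamine genes. Other list members were named after their values were seen. A few genes that the rule named are not reported here. The comparison, the lists and their members were chosen with earlier results of these data known.

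The trend along MC10 is a lowess curve (span 0.3) of each library's deviation from the gene mean on the difference between MC10 and MC6 to MC9, entered as an offset with MC10 left out. Alternatives were DESeq2 1.42.0, RLE factors, other count filters, fewer libraries, a gene length trend and each library left out.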

Additional observations from a re-analysis of the deposited data

Results flagged for a closer look

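In groups of 5 libraries, 8 values lay so far from the other 4 that the gap exceeded Dixon's critical value of 0.71, a limit that chance passes in a small share of groups. The complex I locus ndufs1 Nfu_g_1_014057 read 274.0 CPM in MR28 and 261.2 to 262.5 CPM in the other rotenone brains, a narrow range around a small gap.

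The other flags concern the mean log2 CPM of lists. In MR28 the collagen and matrix list read 3.082 against 2.584 to 2.727 in the other rotenone brains, the hepatocyte list 3.163 against 4.441 to 4.807 and the monoamine list 2.036 against 2.096 to 2.118. In MR29 the choroid plexus and ependyma list read 2.258 against 2.16 to 2.184 and the muscle list 1.73 against 2.515 to 2.741. Among young brains the immediate early list read 3.514 in MC1 against 3.798 to 3.9, and the vascular list 3.822 in MC4 against 3.508 to 3.577.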

How the results depend on the processing

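No paired analysis was possible because no fish number is shared by the brain groups compared. Calls between rotenone and young brains, 7.71% of genes tested, became 11.1% with DESeq2, 19.4% with the 10 libraries alone, 24.7% with the MC10 trend removed and 29.6% without MC2, MC3 and MC10. With 1 library left out they ran from 3.26% (MR30) to 22.4% (MC10). Old DMSO against young, 2.09%, became 5.88%, 0.0354% (10 libraries), 3.59% (gene length trend), 13.1%, 3.85% (without MC2 and MC3) and 19.3%, and ran from 0.518% (MC5) to 16.5% (MC10). Rotenone against old DMSO, 8.69%, became 12.3%, 4.06%, 24.5% and 38.5%, and ran from 3.64% (MR27) to 32.5% (MC10). List calls, 192, became 290, 450, 516 and 721, and 76 to 487. The settings that leave out MC2 and MC3 were chosen after seeing the data, for their place near the rotenone brains; without MC2 and MC3 alone, calls between rotenone and young brains were 6.95% and list calls 176. None of the named genes changed direction in a setting where it was called. The setting that lost the most was the one without MR30 (53 genes). Similar numbers were lost without MR27 (48), MR29 (47), MC1 (44) and MC4 (43), and the gene length trend took 12. The causes were not tested. Scarce loci such as CD79B, at 0.0680 to 0.206 CPM in young brains, rest on few reads a library.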

Other observations

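Other lists held between 1 and 5 calls in rotenone against young brains. Splicing regulators had 5 of 62 lower and 0 higher (8.06%, near the 7.71% of all genes), elavl3 among them, but 8 lower and 11 higher with the MC10 trend removed and 9 lower and 6 higher without MC10. The others were srsf9, a general splicing factor, which fell by 0.35 ± 0.07 (adjusted p = 0.00856), the neuronal regulator nova1 Nfu_g_1_005129 (-1.35 ± 0.33 (adjusted p = 0.0245)), celf4 Nfu_g_1_000052 (-2.60 ± 0.58 (adjusted p = 0.0172)) and mbnl3 (-2.03 ± 0.55 (adjusted p = 0.0386)), the last 3 low in MC10 (-2.07, -4.29 and -3.81 log2 units). Hypoxia genes had 2 of 25 higher, hif1ab (0.25 ± 0.07 (adjusted p = 0.0483)) and the glucose transporter slc2a1b, and 1 lower, the oxygen-responsive factor epas1b (-3.04 ± 0.80 (adjusted p = 0.033)), which read 0.514 CPM in MC10 (12%). Fatty acid oxidation had 2 of 32 higher and 0 lower (6.25%), and 3 higher and 6 lower with the MC10 trend removed; the 2 were the dehydrogenase acadl (0.44 ± 0.13 (adjusted p = 0.0468)) beside ucp2.

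Targets of p53 had 1 of 29 higher, the kinase plk2a (0.33 ± 0.08 (adjusted p = 0.0201)), and 1 lower, ZMAT3 (-0.69 ± 0.12 (adjusted p = 0.00595)) (6.9%). For plk2a the old DMSO brains stood higher still, at 196 to 214 CPM against 147 to 179.8 in rotenone and 116.5 to 148 in young brains, and rotenone against old DMSO gave -0.30 ± 0.08 (adjusted p = 0.0263). Thyroid and retinoid signalling had 1 of 34 higher, the retinoid receptor rxrgb (0.35 ± 0.09 (adjusted p = 0.0365)), and 2 lower, raraa (-0.51 ± 0.14 (adjusted p = 0.0364)) and thrab Nfu_g_1_023337 (-1.54 ± 0.44 (adjusted p = 0.0474)) (8.82%). The midbrain and choroid plexus factor otx2 Nfu_g_1_012360 read 17.9, 18.3, 18.3, 16.7 and 17.7 CPM in young and 12.01, 12.2, 11.9, 11.9 and 12.1 CPM in rotenone brains and fell by 0.56 ± 0.10 (adjusted p = 0.00574), the 1 call among 16 genes of choroid plexus and ependyma (6.25%). Between the old groups otx2 Nfu_g_1_012360 gave -0.12 ± 0.10 (adjusted p = 0.502).

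The following lists of other tissues gave 0 or 1 call each, against 7.71% of all genes. Muscle genes had 1 of 31 lower (3.23%), tpm1 Nfu_g_1_003866 (-0.23 ± 0.06 (adjusted p = 0.0299)), and germ-cell genes 1 of 10 lower (10%), TDRD7 (1 of 2) (-0.41 ± 0.11 (adjusted p = 0.0311)). Epidermis had 0 of 22 called in edgeR (4 higher and 0 lower at an unadjusted p under 0.05, 1 higher by DESeq2), hepatocyte 0 of 27 (3 higher and 1 lower, 1 higher and 1 lower by DESeq2), retina 0 of 25 (1 higher and 1 lower, 0 by DESeq2) and pineal 0 of 5 (0, and 0 by DESeq2).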
